A study of Mus musculus with 6 samples.

Results

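The genes described here encode the machinery that folds new proteins in the endoplasmic reticulum (ER) and removes those that fail to fold: chaperones, disulfide enzymes, prolyl isomerases, the Sec61 entry channel, ER-associated degradation (ERAD) and the regulators of the unfolded protein response. They were chosen by name, with earlier results of these data known. Of 52 genes listed, 50 had a probe set annotated to that gene alone and were measured, out of 19939 genes measured in this way. Ero1b was matched through its older symbol Ero1lb. Fkbp10 had no named probe set in the annotation used and Sec61g lay only on probe sets shared with other genes, so these 2 were not analysed here. Melan-Ink4a is a pigment cell line derived from skin of C57BL/6J mice and is null for the Ink4a-ARF1 tumour suppressor locus. The NRG1 group (3 arrays) was stimulated with 10 nM NRG1-b1, a form of the growth factor neuregulin 1 that binds the receptor ERBB3, for 21 days. The untreated group (3 arrays) received no NRG1, and the labels give no time in culture for it. Both groups shared this genotype and grew in medium that held cholera toxin (200 pM) and TPA, a phorbol ester (200 nM). Cells were harvested at 90% confluence. Nothing in the labels tells whether replicate arrays stem from separate cultures, or whether the line is 1 clone. The p-values therefore measure the spread between these samples only, and that spread may be technical.

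Secreted and membrane proteins enter the ER through the Sec61 channel, fold there with the help of BiP, GRP94, the lectins calnexin and calreticulin and the protein disulfide isomerases, and are sent back to the cytosol for degradation by ERAD if folding fails. When unfolded proteins build up, the sensors IRE1, ATF6 and PERK raise the expression of these helpers. In melanocytes the pigment enzyme tyrosinase is a glycoprotein that folds with calnexin, and its misfolded forms are known clients of ERAD.

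Values are the deposited log2 values, and a difference is NRG1 minus untreated on that scale. Rises and falls are those with an adjusted p under 0.05 in limma, adjusted over all 19939 genes. Array medians over all probe sets lay between 6.99 and 7.07. The number of arrays, 3 a group, limits the precision. All 10 melanocyte markers lay above 7.11, the lowest median of any array over the tested genes, with array means of 11.37 to 11.41 with NRG1 and 12.03 to 12.07 untreated, and 9 of them fell. Of the markers of other cell types, 3 of 6 fibroblast genes, 5 of 5 keratinocyte genes and 3 of 4 measured immune genes had a 6-array mean below that value. The untreated mean of the keratinocyte gene Cdh1, 7.17, lay above it, and its NRG1 mean was 6.72. Array means were 6.71 to 6.86 with NRG1 and 6.63 to 6.78 untreated for the fibroblast list, where Col1a1 rose. For the keratinocyte list, where Cdh1 fell, they were 6.13 to 6.19 with NRG1 and 6.21 to 6.40 untreated. For the immune list, where Cd68 rose, they were 6.25 to 6.33 with NRG1 and 6.23 to 6.29 untreated. Genes of proliferation moved with NRG1 as well: 9 of 9 rose, by 0.91 to 1.76, with array means of 9.15 to 9.43 with NRG1 and 7.96 to 8.13 untreated, and their part in the changes below was not tested. In RNA from whole cultures, a change in which cells are present and a change in transcript per cell cannot be told apart.

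Most of the listed folding genes were higher with NRG1. The listed ERAD genes moved in both directions. Among the stress sensors and regulators, the transcription factor gene Xbp1 rose and the sensor gene Ern1 and Wfs1 fell. Of the 50 genes, 27 rose, 5 fell and 18 did not pass the test. That is 54% that rose and 10% that fell, against 12.3% and 8.56% of all genes tested (limma, adjusted p under 0.05). The shares over all genes include many dimmer genes, as the median level was 9.76 for the 50 genes and 7.17 for all. With the genes below the median level left out, 29 of 48 rose and 5 fell. In that fit 4372 of all 9969 genes rose or fell. Rises among all genes were not counted apart from falls there, so the 29 rises have no like share beside them. After quantile normalization over the tested genes, 24 of the 50 rose (48%) and 7 fell (14%), against 11.3% and 12.0% of all genes, and rises made up 48.5% of all calls, against 59% without it. The median difference of the 50 genes was 0.24, against -0.029 over all genes, and single differences ran from -0.43 to 0.90. The 3 NRG1 values lay all above the 3 untreated values for 31 of the 50 genes and all below them for 8, against 18.6% and 18.1% of all genes. With groups of 3, the smallest p of an exact permutation test on 1 gene is 0.1. When limma's treat asked for a change beyond 1.2-fold, 11 of the 50 rose and 0 fell, where 4.43% of all genes rose and 1.72% fell. These 11 were Hspa5, Hsp90b1, Hyou1, Dnajb11, Manf, Creld2, Pdia4, Pdia6, Txndc5, Fkbp14 and Xbp1, and they passed under all 16 alternative settings.

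**Figure D1:**
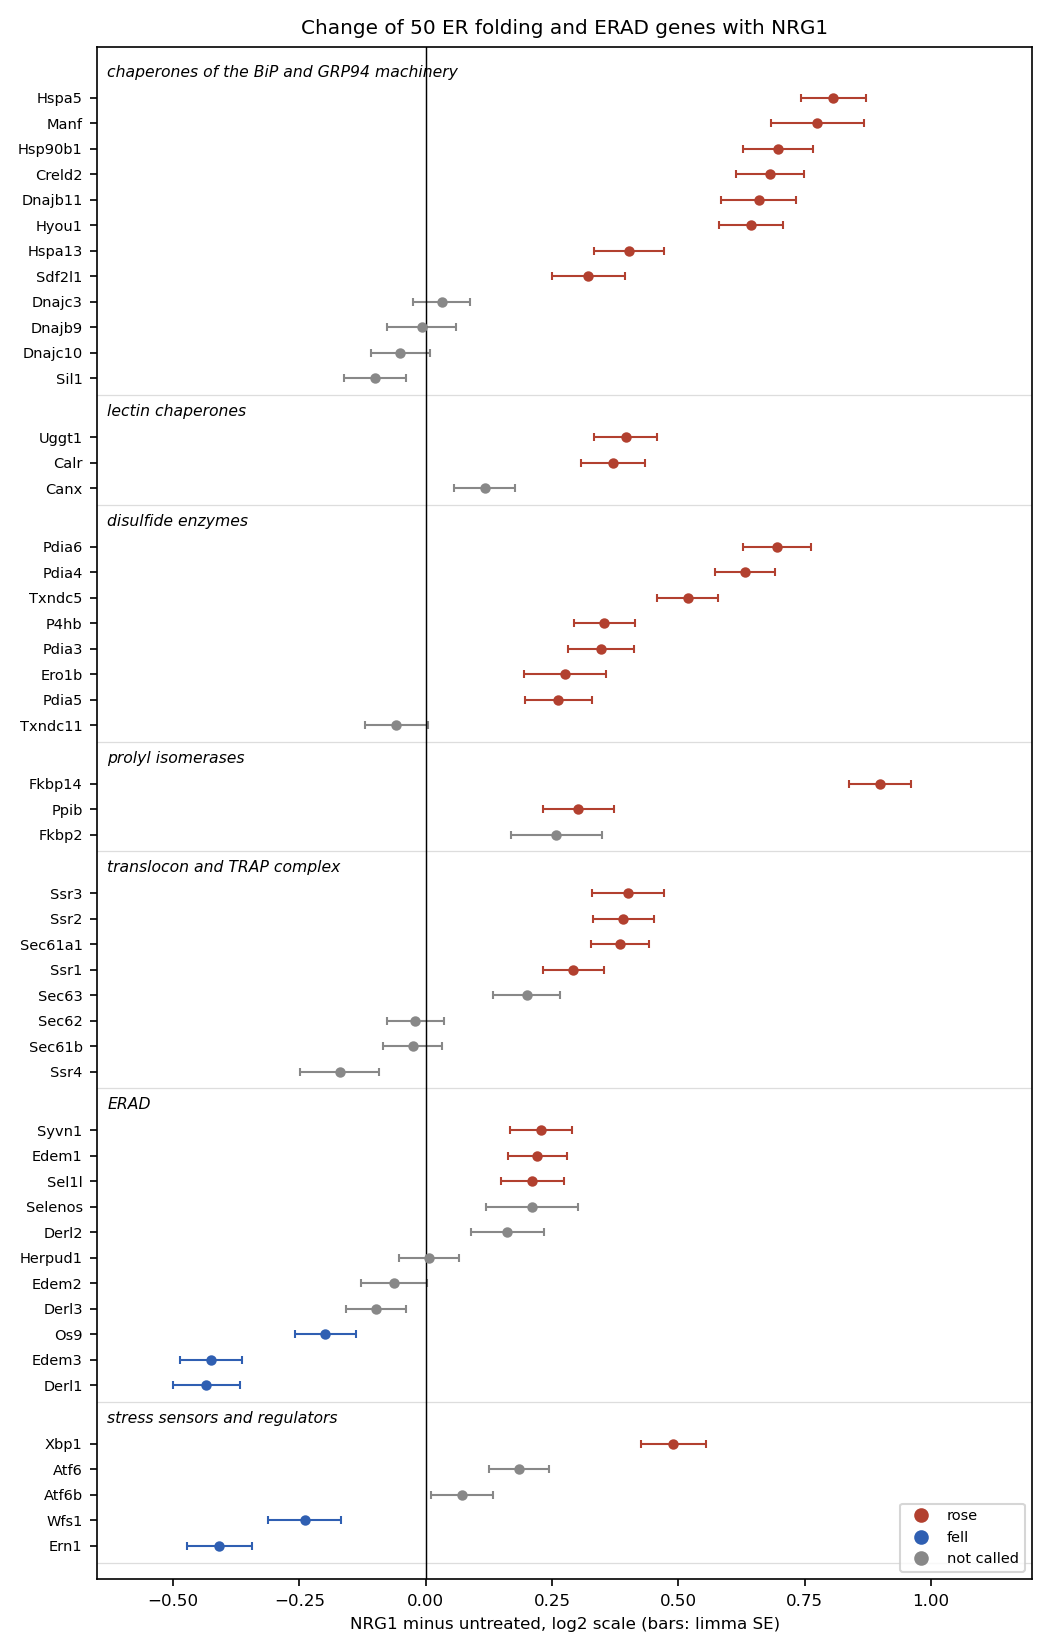
Difference between NRG1 and untreated arrays on the log2 scale (x axis) for each of the 50 genes, grouped by role, with bars for limma's standard error and colour for the call. The chaperone, disulfide and isomerase genes lie mostly to the right of 0, up to 0.90 for Fkbp14. The 5 falls are in ERAD and among the sensors and regulators, down to -0.43 for Derl1.

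The median shift was not the same in every role. The chaperones of the BiP and GRP94 machinery had a median difference of 0.52 (8 of 12 rose), the lectin chaperones 0.37 (2 of 3), the disulfide enzymes 0.35 (7 of 8), the prolyl isomerases 0.30 (2 of 3) and the translocon and TRAP genes 0.25 (4 of 8). No gene of these 5 roles fell in this fit, while Sil1 and Ssr4 did after quantile normalization over the tested genes. ERAD genes had a median of 0.0064, with 3 of 11 that rose and 3 that fell, and the sensors and regulators 0.072, with 1 of 5 that rose and 2 that fell. Differences between roles were not tested.

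**Figure D2:**
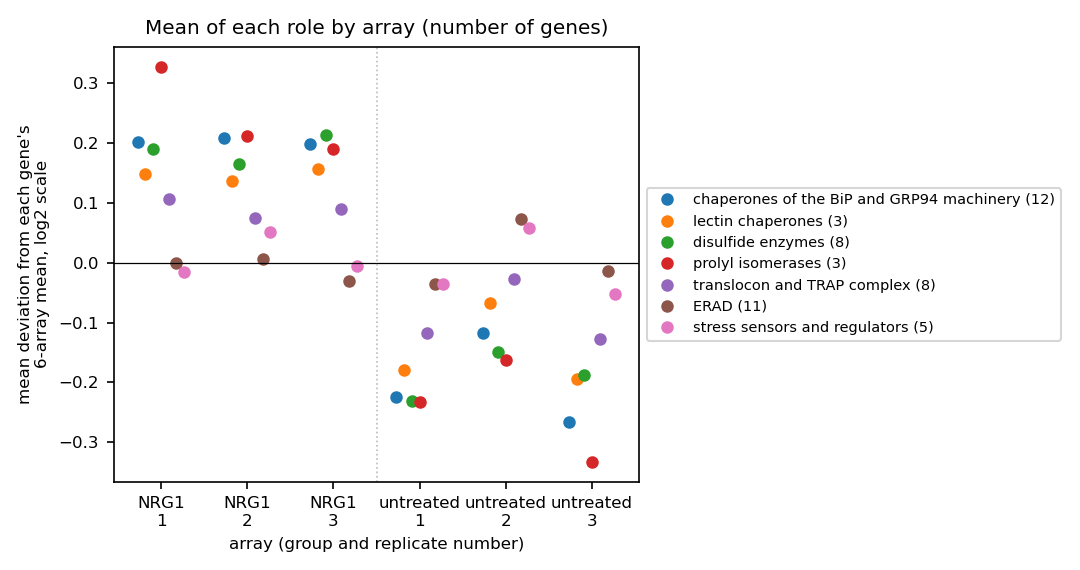
Mean deviation of the genes of each role from their own 6-array mean (y axis, log2 scale) in each of the 6 arrays (x axis), with NRG1 arrays left of the dotted line. Chaperones, disulfide enzymes and isomerases lie above 0 in all 3 NRG1 arrays and below 0 in all 3 untreated arrays, ERAD stays near 0, and untreated replicate 2 is the highest untreated array in every role.

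The untreated arrays were not alike for these genes. Untreated replicate 2 held the highest of the 3 untreated values for 44 of the 50 genes, against 38.1% of all genes. The pattern was not confined to the 50 genes. It was also seen in genes of the further lists below, such as Sec23a, Tram2 and Ostc, though not in Kdelr3. Averaged over the 50 genes, the deviation from each gene's 6-array mean was 0.12, 0.12 and 0.11 in the NRG1 arrays and -0.15, -0.048 and -0.15 in untreated replicates 1, 2 and 3. Without untreated replicate 2, 31 of the 50 rose and 3 fell, with 13.0% of all genes that rose and 9.03% that fell in the same fit, and the median difference was 0.28. The 4 genes that passed without that array and not with it were Fkbp2, Sec63, Selenos and Atf6, and the calls of Os9 and Wfs1 ended.

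The promoters of these genes are known for a shared response element, shown here because some of the genes with the largest rises hold it and others do not. ERSE, the ER stress response element bound by ATF6 and XBP1 with NF-Y, was searched as CCAAT, 9 bases of any kind and CCACG, and its variant ERSE-II as ATTGG, 1 base of any kind and CCACG, both on either strand, from 250 bases before to 50 after the annotated start in RefSeq promoters of GRCm38.p6. Promoters were matched for 42 of the 50 genes, and there was none for Hspa13, Hyou1, Sil1, Manf, Sec61a1, Ssr2, Derl1 and Atf6. ERSE was found in 10 of the 42 genes (23.8%), against 37 of all 27025 genes with a promoter (0.137%). The 37 include these 10, and 5 of the 42 genes had several promoters. As promoters of these genes were already known for the element, the shares are a description and not a test. ERSE-II was found in Dnajb11 and Herpud1, against 12 of all 27025 genes (0.0444%). The 11 ERSE matches lay between positions -212 and -26 relative to the start, 6 reading toward the gene and 5 away from it. They are printed from CCAAT to CCACG with 10 bases on each side, in the order of the genes' differences, with those 2 boxes in capitals. Hsp90b1 has 2 matches.
Hspa5, chr2:34772015-34772053, plus strand: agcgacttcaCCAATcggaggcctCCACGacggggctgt
Hsp90b1, chr10:86705628-86705666, minus strand: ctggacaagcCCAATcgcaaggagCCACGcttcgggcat
Hsp90b1, chr10:86705523-86705561, plus strand: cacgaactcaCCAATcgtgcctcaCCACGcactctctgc
Pdia6, chr12:17266481-17266519, plus strand: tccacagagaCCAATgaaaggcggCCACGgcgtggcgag
Creld2, chr15:88819510-88819548, minus strand: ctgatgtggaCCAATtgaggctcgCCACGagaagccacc
Calr, chr8:84847065-84847103, plus strand: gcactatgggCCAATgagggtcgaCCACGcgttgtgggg
Ero1b, chr13:12565672-12565710, minus strand: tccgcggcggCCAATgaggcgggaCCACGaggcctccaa
Syvn1, chr19:6046522-6046560, plus strand: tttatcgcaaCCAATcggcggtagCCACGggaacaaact
Canx, chr11:50325790-50325828, minus strand: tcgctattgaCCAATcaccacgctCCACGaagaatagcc
Dnajc3, chr14:118937817-118937855, plus strand: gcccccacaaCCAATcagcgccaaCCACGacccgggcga
Derl3, chr10:75893232-75893270, minus strand: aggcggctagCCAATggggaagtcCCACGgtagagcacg

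Of the 10 genes with ERSE, 7 rose and 3 did not pass the test, with a median difference of 0.32. The other 32 genes with a promoter had 15 that rose, 4 that fell and a median of 0.21. Both groups of genes thus held rises, and the difference between them was not tested. The genes with ERSE that did not pass were Canx at 0.12, Dnajc3 at 0.032 and Derl3 at -0.099. Fkbp14, which had the largest rise, held neither ERSE nor ERSE-II in this window. The shorter letters TGACGTGG, a site of XBP1 and ATF6 whose reverse strand holds the CCACG box, were found in Txndc5 and Txndc11 only among the 42, and in 193 of all 27025 genes (0.714%). A match of letters is a description and does not show that a factor was bound in these cells.

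**Figure D3:**
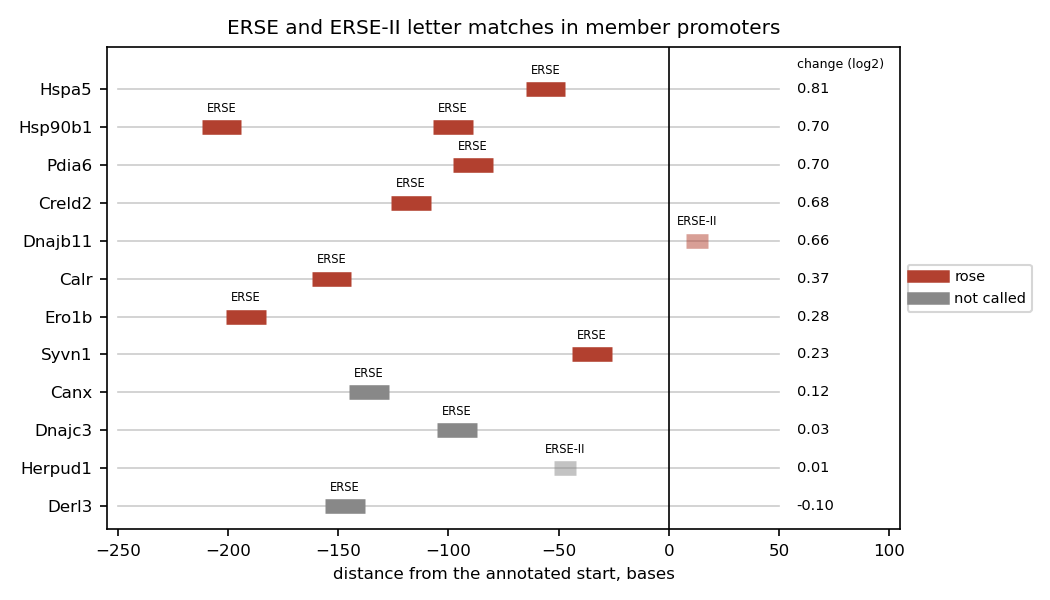
Position of ERSE and ERSE-II matches relative to the annotated start (x axis, bases) in the 12 genes that hold one, ordered by their difference (log2 scale, right), with colour for the call and ERSE-II in a paler shade. Matches of genes that did not pass the test lie between -156 and -42, within the wider range of those of genes that rose.

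Hspa5 encodes BiP, the Hsp70 of the ER lumen and the chaperone that keeps the stress sensors inactive. Its values were 11.95, 11.98 and 12.01 with NRG1, against 11.09, 11.26 and 11.17 untreated. The groups did not overlap, and the rise of 0.81 ± 0.064 (SE) is 1.75-fold (limma, adjusted p = 9.51e-06). The 150 bases before its start are printed with every CCAAT and CCACG in capitals, and they hold 1 ERSE and a further CCAAT that is not followed by CCACG at the same distance.
Hspa5, chr2:34771940-34772089, plus strand: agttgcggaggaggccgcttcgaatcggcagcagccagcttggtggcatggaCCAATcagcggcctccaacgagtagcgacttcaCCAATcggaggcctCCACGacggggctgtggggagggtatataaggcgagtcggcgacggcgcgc

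Hsp90b1 encodes GRP94, the Hsp90 of the ER, which folds integrins and Toll-like receptors among its clients. It had 12.39, 12.34 and 12.44 with NRG1, against 11.66, 11.81 and 11.62 untreated, with all NRG1 arrays higher. The rise was 0.70 ± 0.069 (SE), or 1.62-fold (limma, adjusted p = 4.54e-05). Manf, a small secreted protein that binds BiP, had 9.59, 9.52 and 9.65 with NRG1, against 8.87, 8.97 and 8.60 untreated. It rose 1.71-fold, and its untreated arrays, although spread (SD 0.19), stayed below every NRG1 array (limma, adjusted p = 0.000164). Creld2, an ER protein induced by stress, had 9.14, 9.14 and 9.04 with NRG1, against 8.36, 8.52 and 8.39 untreated, and rose 1.6-fold.

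Partners that drive the BiP cycle were split. Hyou1, a large Hsp70-like protein that exchanges the nucleotide of BiP, had 10.26, 10.32 and 10.32 with NRG1, against 9.66, 9.73 and 9.58 untreated, and rose by 0.64 ± 0.063 (SE; limma, adjusted p = 4.49e-05). Sil1, the other exchange factor for BiP, was at 9.52 ± 0.073 with NRG1 and 9.63 ± 0.013 untreated (SD, n = 3 each) and did not pass, at -0.10 (limma, adjusted p = 0.303). After quantile normalization over the tested genes it passed, at -0.18 (adjusted p = 0.0431). Dnajb11, the J-domain co-chaperone ERdj3, rose by 0.66 ± 0.074, and Sdf2l1, which works in a complex with it, by 0.32 ± 0.073 (SE; limma, adjusted p = 0.000111 and 0.00973). Hspa13, an Hsp70-like ATPase of microsomes, rose by 0.40. The other 3 J-domain genes did not pass. Dnajb9, a co-chaperone that restrains IRE1, was at 9.34 ± 0.049 with NRG1 and 9.35 ± 0.099 untreated. Dnajc3, which encodes p58IPK, was at 11.36 ± 0.012 with NRG1 and 11.33 ± 0.031 untreated, with the same values on its second probe set. Dnajc10, a co-chaperone that also reduces disulfides for ERAD, was at 10.50 ± 0.035 with NRG1 and 10.55 ± 0.043 untreated (SD, n = 3 each). In these 3 the groups overlapped.

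**Figure D4:**
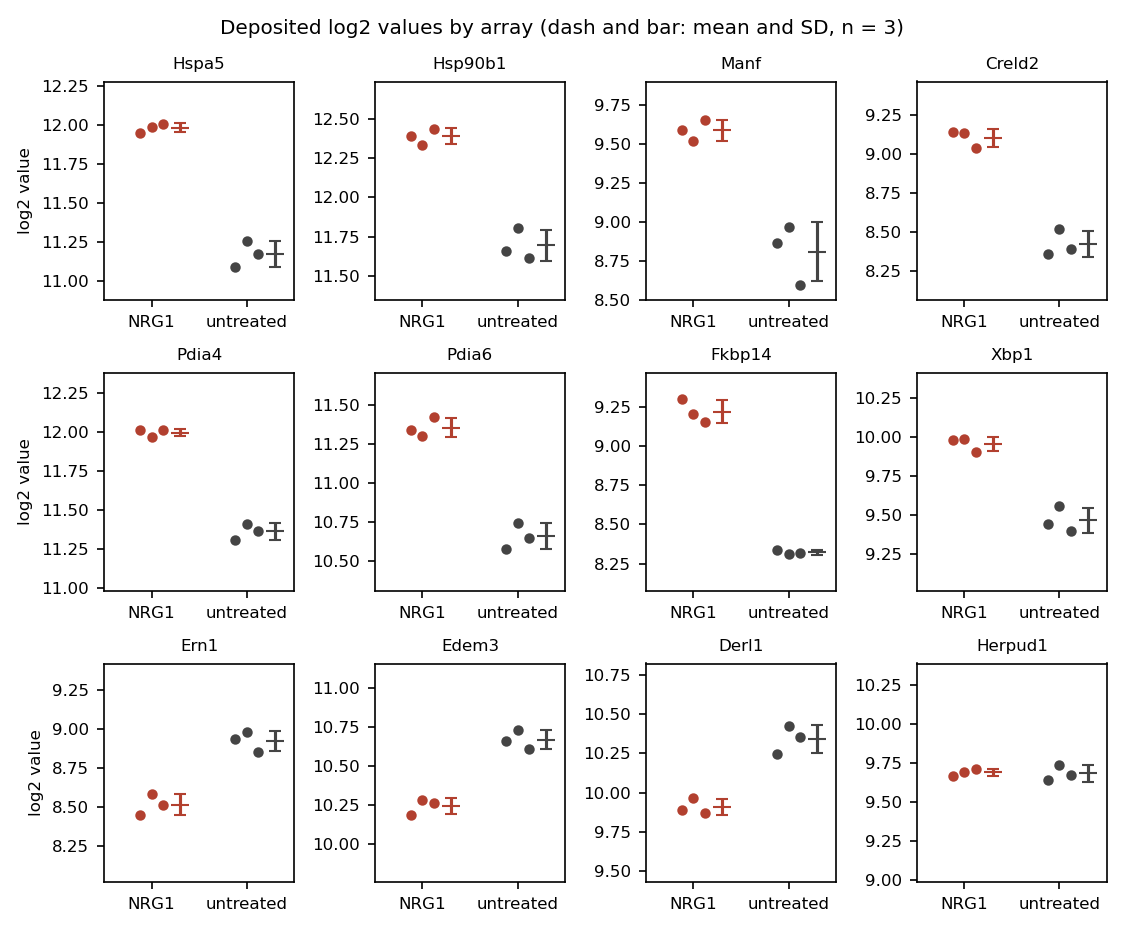
Deposited log2 values (y axis, a range of 1.4 in each panel) of 12 genes on the 3 NRG1 arrays (left, red) and the 3 untreated arrays (right, grey), with the mean and SD beside the points. The first 8 genes are higher in all NRG1 arrays, Ern1, Edem3 and Derl1 lower in all of them, and Herpud1 overlaps.

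Lectin chaperones hold glycoproteins that carry a single glucose. Calr, the soluble calreticulin, had 12.25, 12.26 and 12.28 with NRG1, against 11.83, 11.99 and 11.87 untreated, a rise of 0.37 ± 0.063 (SE; limma, adjusted p = 0.00197). Uggt1, the enzyme that puts the glucose back on unfolded glycoproteins, rose by 0.40 ± 0.062 (adjusted p = 0.0011), with values of 10.19 to 10.22 with NRG1, against 9.76 to 9.90 untreated. Canx, the membrane-bound calnexin, had 12.35, 12.31 and 12.37 with NRG1, against 12.24, 12.28 and 12.16 untreated. Its NRG1 values were all higher, but the difference of 0.12 did not pass (limma, adjusted p = 0.222).

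Disulfide enzymes rose almost throughout. Pdia6, which attenuates IRE1 and binds BiP, had 11.34, 11.30 and 11.42 with NRG1, against 10.58, 10.75 and 10.65 untreated, with no overlap. It rose 1.62-fold (limma, adjusted p = 3.75e-05). Pdia4, the isomerase ERp72, had 12.01, 11.97 and 12.01 with NRG1, against 11.31, 11.41 and 11.37 untreated, a rise of 0.63 ± 0.059 (SE; adjusted p = 3.05e-05). Its second and dimmer probe set gave 8.47 with NRG1 and 8.36 untreated, a difference of 0.11 that did not pass when all probe sets were tested (limma, adjusted p = 0.235). The 2 probe sets therefore disagree in the call, and with both averaged the rise was 0.37 (adjusted p = 0.00103). Txndc5, an isomerase with several thioredoxin domains, rose by 0.52 ± 0.061 (limma, adjusted p = 0.00015). P4hb, the classical protein disulfide isomerase and a subunit of the collagen prolyl 4-hydroxylase, rose by 0.35 to 11.73 ± 0.034, against 11.38 ± 0.056 untreated (SD, n = 3 each). Pdia3, the partner of calnexin and calreticulin, also rose by 0.35, with 12.41, 12.27 and 12.42 with NRG1, against 11.98, 12.08 and 12.00 untreated.

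Smaller rises were those of Pdia5 (0.26, limma, adjusted p = 0.0177) and of Ero1b (0.28, adjusted p = 0.0351), an oxidase that supplies the isomerases with disulfides. The mean level of Ero1b, 6.77 with NRG1 and 6.50 untreated, lay below the lowest array median. The Pdia5 call ended without NRG1 replicate 1 (adjusted p = 0.0565) and without NRG1 replicate 3 (adjusted p = 0.059), and the Ero1b call without NRG1 replicate 1 (0.29, adjusted p = 0.0726), NRG1 replicate 3 (0.23, adjusted p = 0.128) or untreated replicate 1 (0.20, adjusted p = 0.138). Txndc11, a membrane-anchored thioredoxin-like protein, was at 8.59 ± 0.063 with NRG1 and 8.65 ± 0.049 untreated (SD, n = 3 each), with overlapping groups (adjusted p = 0.583).

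Prolyl isomerases turn the peptide bonds that slow folding, above all in collagens. Fkbp14 had 9.30, 9.21 and 9.15 with NRG1, against 8.34, 8.31 and 8.31 untreated. Every NRG1 array was higher, and the rise of 0.90 ± 0.062 (SE), 1.86-fold, was the largest of the 50 genes (limma, adjusted p = 3.55e-06). Ppib, the cyclophilin B of the collagen-modifying complex, had 11.68, 11.66 and 11.63 with NRG1, against 11.34, 11.48 and 11.25 untreated, a rise of 0.30 ± 0.070 (adjusted p = 0.0113). Fkbp2 had 9.50, 9.26 and 9.29 with NRG1, against 9.11, 9.22 and 8.94 untreated, which did not pass (0.26, adjusted p = 0.0697). Without untreated replicate 2 it passed, at 0.32 (adjusted p = 0.0378), as it did in 4 other alternatives.

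At the entry to the ER, the channel subunit gene Sec61a1 and 3 of 4 subunits of the translocon-associated TRAP complex rose, while the channel subunit gene Sec61b did not pass. Sec61a1, the pore of the channel, had 11.77, 11.80 and 11.76 with NRG1, against 11.36, 11.43 and 11.40 untreated, and rose by 0.38 ± 0.057 (SE; limma, adjusted p = 0.000789). Sec61b, a small subunit of the channel, was at 9.06 ± 0.020 with NRG1 and 9.09 ± 0.045 untreated (SD, n = 3 each; adjusted p = 0.812), and its 2 other probe sets did not pass either. Among the TRAP genes, Ssr3 rose by 0.40 ± 0.072, Ssr2 by 0.39 ± 0.061 and Ssr1 by 0.29 ± 0.060 (SE; limma, adjusted p = 0.00253, 0.00104 and 0.00604). Ssr4 had 9.20, 9.21 and 9.10 with NRG1, against 9.24, 9.50 and 9.29 untreated. It was the TRAP subunit with lower NRG1 values, a difference of -0.17 that did not pass (adjusted p = 0.168). It passed after quantile normalization over the tested genes, at -0.23 (adjusted p = 0.0275). Sec62 and Sec63 serve proteins that enter after their synthesis. Sec63 was at 9.87 ± 0.039 with NRG1 and 9.67 ± 0.092 untreated (adjusted p = 0.0588, but 0.0405 without untreated replicate 2), and Sec62 at 9.75 ± 0.013 with NRG1 and 9.77 ± 0.033 untreated (SD, n = 3 each; limma, adjusted p = 0.851).

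ERAD genes differed from each other in direction. Derl1, a derlin of the channel through which substrates leave, had 9.89, 9.97 and 9.87 with NRG1, against 10.25, 10.43 and 10.35 untreated. Its NRG1 arrays were all lower, and it fell by 0.43 (SE 0.067; limma, adjusted p = 0.00097). Edem3, a mannosidase that marks misfolded glycoproteins, had 10.19, 10.28 and 10.26 with NRG1, against 10.66, 10.73 and 10.61 untreated, and fell by 0.42 (SE 0.062; adjusted p = 0.000686). Both calls held under every alternative except the test against a minimum change. Their relatives did not follow them. Edem1 rose by 0.22 (adjusted p = 0.0227) and Edem2 was at 8.63 ± 0.085 with NRG1 and 8.69 ± 0.046 untreated. Derl2 was at 9.78 ± 0.099 with NRG1 and 9.62 ± 0.079 untreated, and Derl3, below the array median, at 6.71 ± 0.019 with NRG1 and 6.81 ± 0.057 untreated (SD, n = 3 each; limma, adjusted p = 0.575, 0.152 and 0.294 for these 3). With array weights Derl2 passed, at 0.20 (adjusted p = 0.0319). Whether members of a family differed was not tested.

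The ubiquitin ligase at the centre of ERAD, HRD1, is encoded by Syvn1. It had 8.91, 8.90 and 8.78 with NRG1, against 8.62, 8.65 and 8.64 untreated, a rise of 0.23 ± 0.061 (SE; limma, adjusted p = 0.0243). Its partner gene Sel1l had 10.11, 10.24 and 10.19 with NRG1, against 9.96, 10.02 and 9.92 untreated, a rise of 0.21 ± 0.062 (adjusted p = 0.036). NRG1 arrays were higher throughout for both. Os9, a lectin that hands glycoproteins to this ligase, had 10.66, 10.62 and 10.70 with NRG1, against 10.82, 10.92 and 10.83 untreated, and fell by 0.20 (adjusted p = 0.0409). The calls of this group were close to the threshold. The Os9 call ended without any single one of the 6 arrays (-0.22 to -0.17, adjusted p from 0.0683 to 0.128), that of Edem1 without any array but untreated replicate 2 (0.19 to 0.22, adjusted p from 0.0503 to 0.106), that of Syvn1 without NRG1 replicates 1 or 2 or untreated replicates 1 or 3 (0.20 to 0.23, adjusted p from 0.0546 to 0.095), and that of Sel1l without NRG1 replicates 2 or 3 or untreated replicates 1 or 3 (0.18 to 0.21, adjusted p from 0.1 to 0.127). Quantile normalization over the tested genes ended the calls of Sel1l (0.12, adjusted p = 0.158), Syvn1 (0.16, adjusted p = 0.0615) and Edem1 (0.16, adjusted p = 0.058). The Sel1l call also ended after quantile normalization over all probe sets (0.16, adjusted p = 0.0842), and that of Os9 with each array centred on its median (-0.17, adjusted p = 0.106).

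Herpud1, an ER membrane protein of ERAD that stress induces strongly in other cells, had 9.67, 9.69 and 9.71 with NRG1, against 9.64, 9.74 and 9.67 untreated. The groups overlapped and differed by 0.0064 ± 0.059 (SE; limma, adjusted p = 0.956). Its ERSE-II, with 10 bases on each side and the 2 boxes in capitals, lies at positions -52 to -42.
Herpud1, chr8:94386367-94386397, plus strand: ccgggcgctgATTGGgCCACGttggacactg
Selenos, a selenoprotein that recruits the p97 ATPase to the ER membrane, had 8.35, 8.25 and 8.27 with NRG1, against 8.02, 8.30 and 7.93 untreated. It did not pass (0.21, adjusted p = 0.145), but did without untreated replicate 2, at 0.32 (adjusted p = 0.00961), and with array weights, at 0.26 (adjusted p = 0.0154).

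The stress regulators moved apart. Xbp1 encodes the transcription factor that IRE1 activates by splicing its mRNA. It had 9.98, 9.99 and 9.91 with NRG1, against 9.44, 9.56 and 9.40 untreated, a rise of 0.49 ± 0.065 (SE), 1.40-fold (limma, adjusted p = 0.000343). Ern1, the gene of IRE1 itself, had 8.45, 8.58 and 8.51 with NRG1, against 8.93, 8.98 and 8.85 untreated. It was lower in all NRG1 arrays and fell by 0.41 (SE 0.065; adjusted p = 0.00116). The value of a probe set does not separate the spliced from the unspliced Xbp1 mRNA, and splicing was not measured here. Atf6 had 9.07, 9.09 and 9.04 with NRG1, against 8.82, 8.92 and 8.91 untreated, a difference of 0.18 just short of the test (adjusted p = 0.0519). It passed in 6 of 16 alternatives, among them the fit without untreated replicate 2 (0.20, adjusted p = 0.05) and the one with each array centred on its median (0.21, adjusted p = 0.0462). Atf6b, its relative, was at 8.93 ± 0.057 with NRG1 and 8.86 ± 0.045 untreated (SD, n = 3 each; limma, adjusted p = 0.473). Wfs1, a membrane protein of the ER that restrains ATF6, had 8.42, 8.54 and 8.58 with NRG1, against 8.73, 8.86 and 8.67 untreated. It fell by 0.24 (adjusted p = 0.0392), a call that ended without any single array but untreated replicate 3 (-0.27 to -0.19, adjusted p from 0.0552 to 0.147) and with each array centred on its median (-0.22, adjusted p = 0.0695).

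The neighbours of this machinery in the secretory pathway and the PERK arm of the stress response were taken as 5 further lists. Of their 113 genes 109 were measured, of which 39 rose and 3 fell, and the median difference was 0.14. These counts include the 11 measured genes of the PERK arm, of which 5 rose and 1 fell. These shares, 35.8% and 2.75%, compare with 12.3% and 8.56% of all genes tested. Of 21 genes of the COPII coat, which carries cargo out of the ER, and of the KDEL receptors, which return escaped chaperones, 12 rose and 0 fell, with a median of 0.25. Kdelr3, a KDEL receptor, rose to 7.78 ± 0.057 with NRG1, against 6.81 ± 0.073 untreated (SD, n = 3 each), 1.95-fold. The brighter receptor gene Kdelr1, named after its values were seen, was at 10.03 ± 0.062 with NRG1 and 10.18 ± 0.063 untreated. All its NRG1 values were lower, but the difference of -0.15 did not pass (limma, adjusted p = 0.137). It passed in 3 of 16 alternatives. The coat gene Sec23a rose by 0.52. Of 24 genes of the oligosaccharyltransferase, signal peptidase and signal recognition particle, 11 rose and 0 fell. Tram2, a translocon-associated protein, rose by 1.12 ± 0.067 (SE) and Ostc, a subunit of the oligosaccharyltransferase, by 0.48.

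Of 29 other folding and glycan-trimming genes, 8 rose and 1 fell. The prolyl isomerase genes Fkbp7 and Ppic rose by 1.19 and 0.83, and the thioredoxin-domain gene Txndc16 fell by 0.38. Of 24 other ERAD factors, 3 rose, 1 fell and 20 did not pass, with a median of 0.037. Their share of rises, 12.5%, was close to the 12.3% of all genes tested. Trim13, an ER-anchored ubiquitin ligase, rose by 0.35 and Vcp, the p97 ATPase that extracts ERAD substrates, by 0.32, while Herpud2 fell by 0.22. The Herpud2 call ended in 5 of the 6 fits without a single array, all but the one without untreated replicate 3 (-0.25 to -0.18, adjusted p from 0.06 to 0.15). In the PERK arm, the third branch of the stress response, 5 of 11 genes rose and 1 fell. The transcription factor genes Atf3 and Atf4 rose by 0.94 and 0.52, and Ddit3, which encodes the pro-apoptotic factor CHOP, fell by 0.38. The Ddit3 call ended without NRG1 replicates 2 or 3 or untreated replicate 1 (-0.38 to -0.32, adjusted p from 0.0501 to 0.0702). Eif2ak3, the gene of PERK itself and named here after its values were seen, was at 9.85 ± 0.078 with NRG1 and 9.87 ± 0.10 untreated (SD, n = 3 each; limma, adjusted p = 0.87).

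**Figure D5:**
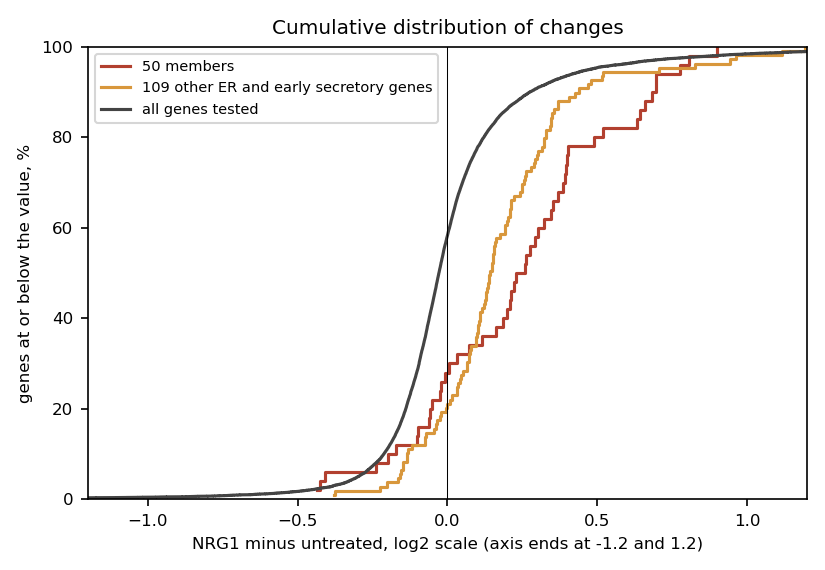
Cumulative share of genes (y axis, %) at or below a given difference (x axis, NRG1 minus untreated, log2 scale). Curves are for the 50 genes, the 109 genes of the further lists and all 19939 genes. The 109 are labelled other ER and early secretory genes and include the PERK arm. The curve of the 50 genes crosses 50% at 0.24, that of the 109 genes at 0.14 and that of all genes at -0.029.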

How the data were processed

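RNA of 6 samples (200 ng each, per the labels) was hybridised to Affymetrix Mouse Gene 1.0 ST arrays. The deposited table holds log2 values per probe set, for which GCOS and RMA are named per the submitters' processing notes. No source used here gives their settings, versions or genome build. The values lay between 2.34 and 14.6, as log2 values do. A probe set has 1 value per array, so differences within a transcript are not seen. Of 35557 probe sets, 21789 had 1 gene, 1621 several and 12147 were unnamed here. Symbols were updated through Entrez numbers to RefSeq (GRCm38.p6). For genes with several probe sets the one with the highest mean over the 6 arrays was tested, with no filter on level. Each of 19939 genes was fitted with limma 3.58.1 in R 4.3.3 (lmFit, eBayes, 2 group means, 2-sided, Benjamini-Hochberg, threshold 0.05), tested on simulated data. The 50 genes and all lists were chosen with earlier results of these data known. All 50 are named, with up to 2 called genes per direction from each further list. Kdelr1 and Eif2ak3 were added after their values were seen. Alternatives were 2 quantile normalizations (one added after seeing the data), median centring, 2 level filters, averaged probe sets, array weights, a prior variance that is robust and follows intensity, a replicate block, single arrays left out and a minimum change. No scan dates were used here, so scan batches were not tested.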

Additional observations from a re-analysis of the deposited data

How the results depend on the processing

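The number of these genes that rose stayed between 23 and 32 in 15 of 16 alternatives, against 27 in the fit reported, and without single arrays it ran from 23 to 31. Calls over all genes, rises and falls together, moved as well, from 4168 of 19939 in the fit reported. They numbered 3116 without NRG1 replicate 1 (23 of the 50 rose) and 6086 with array weights (32 rose). Without the genes below the median level they numbered 4372 of 9969 (29 of 48 rose). Of the 27 that rose, 22 passed under every alternative but the test against a minimum change of 1.2-fold, the others being Pdia5, Ero1b, Syvn1, Sel1l and Edem1. With that minimum, 1225 of all genes, 11 rises and 0 falls of the 50 genes, and 9 rises and 0 falls of the 109 neighbouring genes passed. The falls of the 50 genes numbered 3 with each array centred on its median and 3 with the replicate block, and 3 to 4 without single arrays. Those of the 109 genes numbered 8 after quantile normalization, 10 after quantile normalization over the tested genes, 6 without the genes below the median level, 8 with an intensity trend and robust prior, 5 with array weights, and 1 to 4 without single arrays. The differences of 4 genes that did not pass changed sign: Dnajb9 (0.016 centred, 0.031 with array weights, 0.012 without NRG1 replicate 3, 0.049 without untreated replicate 2), Sec61b (0.0086 with array weights), Sec62 (0.0039 centred) and Herpud1 (-0.039 and -0.070 after the quantile normalizations, -0.0031 without NRG1 replicate 3, -0.016 without untreated replicate 1). Without single arrays Dnajb9 ran from -0.037 to 0.049 and Herpud1 from -0.016 to 0.035. The cause was not tested. Arrays with the same replicate number did not deviate together (correlations across genes of -0.095, -0.16 and 0.074). These values show no pairing by number, but with 3 arrays a group they cannot exclude one. With the replicate block 24 of the 50 genes rose and 3608 of all genes were called, and the calls of Syvn1, Sel1l, Edem1, Os9 and Wfs1 ended (adjusted p from 0.0547 to 0.0907). With 3 arrays a group the median SE of a difference was 0.071, which limits the test for small differences. That of Sel1l (0.21) lay close to the limit, and that of Canx (0.12) passed in 0 of 16 alternatives.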

Other observations

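Of all tested genes with a promoter, 12.9% rose and 8.55% fell. Outside the 50 genes, 11 tested genes held an ERSE in the same promoter window, and 3 of them rose and 0 fell, with a median difference of -0.063. The 3 were named after their values were seen: Adcy3, an adenylyl cyclase gene, by 0.61 (limma, adjusted p = 0.000154), Calr4, a relative of calreticulin, by 0.40 (adjusted p = 0.0276) and the zinc finger gene Zfp57 by 0.25 (adjusted p = 0.0286). The levels of Calr4, 4.66 with NRG1 and 4.25 untreated, were far below the array median. An ERSE is shared by each of 2 pairs of genes on opposite strands. The match in the Creld2 promoter (GRCm38.p6, chromosome 15, 88819520 to 88819538), at positions -126 to -108 from the start of Creld2, lies at -220 to -202 from that of Alg12, a mannosyltransferase gene of N-glycan synthesis on the opposite strand. Creld2 rose by 0.68, whereas Alg12 was at 7.60 with NRG1 and 7.66 untreated (limma, adjusted p = 0.599). The difference between the 2 genes was not tested. The match in the Calr promoter (chromosome 8, 84847075 to 84847093), at -162 to -144 from the start of Calr, lies at -72 to -54 from that of 1700122E12Rik, whose level was not analysed here.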
